A study of Macaca mulatta with 11 samples.

Results

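Cumulus cells after maturation in culture (IVM, 3 arrays) were compared with cumulus cells before maturation (PM, 4 arrays), 7 of the 11 arrays of the study, chosen by the titles of the samples. Cumulus cells wrap the oocyte and make up, with it, the cumulus-oocyte complex, and all samples came from rhesus macaques (Macaca mulatta) stimulated with follicle-stimulating hormone (FSH). The PM cells came from immature complexes of animals given FSH alone, and the IVM cells from complexes matured in vitro after the same stimulation. The other 4 arrays (VVM) hold cumulus cells matured in the animal with human chorionic gonadotropin after FSH, and here they lend only their spread and a reference level. Total RNA came from a PicoPure kit, and 50 ng of it was amplified linearly in repeated rounds, labelled with biotin and hybridised to an Affymetrix rhesus array. The labels give no age or strain and do not say that the samples came from separate animals or cultures, so p-values measure the spread between these samples, which may be technical. The design text of the series gives PM the role of tracing the developmental transition of the matured cells.

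The cumulus cell nourishes the oocyte through gap junctions, takes up glucose and delivers pyruvate and lactate, and divides under FSH while the follicle grows. At the ovulatory signal, which reaches cumulus cells largely through EGF-like growth factors, the cells stop dividing, secrete hyaluronan and the proteins that crosslink it, and begin to make progesterone. In culture the complex passes through this programme outside the follicle.

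Values are log2 of the deposited intensity, so a difference of 1 is a 2-fold change, and values of a gene are listed in the order PM 1 to PM 4 and IVM 1 to IVM 3. A difference is the IVM mean minus the PM mean, with the standard error of a limma fit (n = 3 and 4), and a gene is called when its Benjamini-Hochberg adjusted p is under 0.05. Array medians lay between 5.34 and 5.53, and a level below the medians says little about how low the transcript is, so folds against such a level are at best lower bounds. Arrays correlated at 0.980 to 0.987 within PM and 0.974 to 0.977 within IVM, against 0.909 to 0.952 between the groups, across probe sets, which are not independent. Of 13 measured markers of cumulus and granulosa cells, 12 lay above the array medians in both groups, 2 were called higher and 6 lower in IVM, and their summed level was lower in IVM without overlap, from 15.90 to 16.13 in PM and from 15.33 to 15.81 in IVM. The bacterial hybridization controls, which are added after labelling, stood at 9.85 to 10.24 in PM and at 11.45 to 12.16 in IVM. This control level moved with the groups without overlap, and the excess of 3 prime over 5 prime signal of the array maker's control transcripts did so too, at 2.57 to 2.82 in PM and 2.86 to 3.63 in IVM. Their part in the differences cannot be told apart from that of the group: with the hybridization level as a covariate the median standard error of a gene went from 0.17 to 0.45, and limma called 0 genes higher and 2 lower, ALDH1L1 and CNST, against 1158 and 970 genes at an unadjusted p under 0.05.

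More genes were called higher than lower in IVM as deposited, and fewer after each array was centred on its median, while the falls were larger than the rises and lay in more abundant transcripts. Of 14132 genes, 3539 were called higher (25.0%) and 2953 lower (20.9%), and the 2 groups of arrays did not overlap in 7110 genes (50.3%). At 2-fold or more, 718 genes were higher (5.08%) and 1810 lower (12.8%), and at 8-fold or more 60 were higher and 103 lower. Genes called lower had a median PM level of 9.10, against 6.18 for genes called higher. PM is 1 side of the difference, and in IVM these medians were closer, at 7.68 and 6.94. Among genes with both means under the highest array median, 786 were called higher and 121 lower, but only 18 of those 786 reached 2-fold. The median difference over all genes was 0.12, and with each array centred on its median it was -0.03, with 2078 genes higher and 3406 lower. Of the 2528 genes that changed at least 2-fold, 2495 stayed called after that centring, and 2358 kept their direction with the hybridization level as a covariate. These genes were chosen for their large differences and centring moved the median by little, so most of them were bound to stay called. That choice also favours a kept direction. In a fit without 1 of the 7 arrays, between 2604 and 3568 genes were higher and between 2437 and 3016 lower, and 2127 and 2191 genes were called in all 7 of these fits.

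**Figure D1:**
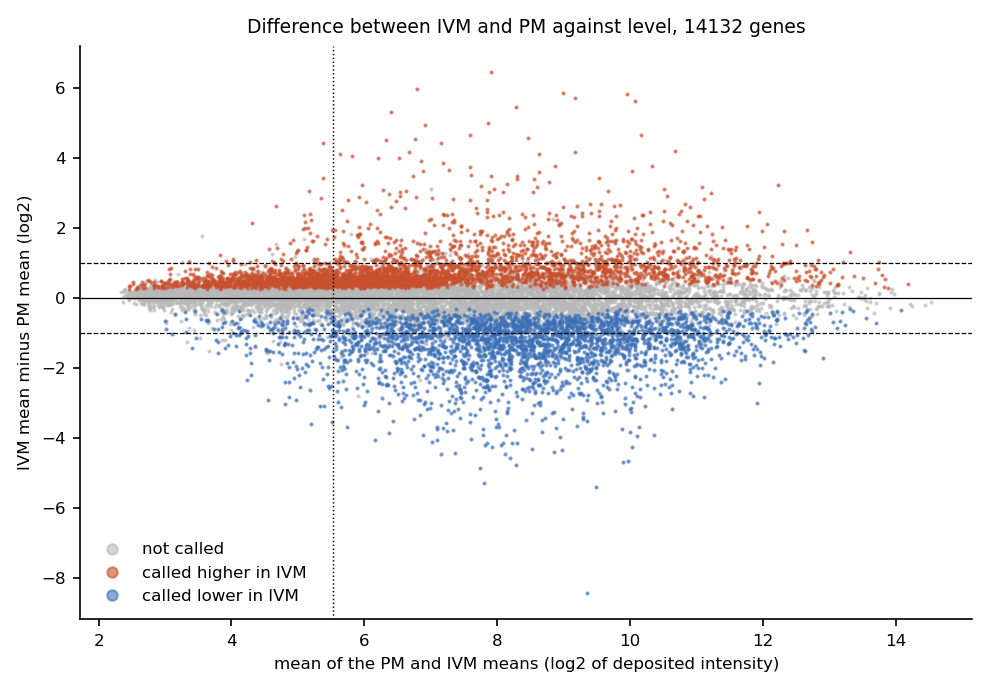
Each point is a gene (14132), with the mean of its PM and IVM means on the horizontal axis and IVM minus PM on the vertical axis, both in log2 units; orange and blue points were called higher and lower, dashed lines mark 2-fold and the dotted line the highest array median (5.53). Small rises crowd the dim end of the plot, while falls of 2-fold or more (1810 genes) spread over the middle and bright range and outnumber rises of that size (718).

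The changes of at least 2-fold were of unequal size in the 3 culture arrays. The groups did not overlap in 696 of the 718 rises and 1733 of the 1810 falls, against 50.3% of all genes. These genes were chosen from the same arrays as called and at least 2-fold, so the lack of overlap follows largely from that choice. In the falls, IVM 3 was the array nearest to PM in 1238 of 1810 genes, and the median change from the PM mean was -1.67 in IVM 1, -1.70 in IVM 2 and -1.28 in IVM 3. In the rises, IVM 3 was nearest in 329 of 718 genes, with median changes of 1.50, 1.51 and 1.40.

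The largest rises held secreted proteins, enzymes of steroid and retinoid metabolism and signalling proteins. EFEMP1, a matrix glycoprotein, measured 5.61, 3.79, 4.21 and 5.06 in PM and 11.60, 11.69 and 10.17 in IVM. The IVM arrays lay far above every PM array, at a difference of 6.48 ± 0.61 (adjusted p = 3.18e-05). CYP3A5, a cytochrome P450, was uniformly dim before culture, at 3.80, 3.90, 3.78 and 3.49 in PM and 10.16, 8.05 and 9.01 in IVM, and rose by 5.33 ± 0.38. DHRS9, a dehydrogenase of retinol and hydroxysteroids, had levels of 5.43, 5.37, 5.09 and 5.54 in PM and 11.36, 11.01 and 8.73 in IVM, a difference of 5.005 ± 0.63, so that IVM 3 had the smallest of 3 clear rises. HEYL, a transcriptional repressor downstream of Notch, gave 5.16, 5.03, 5.24 and 5.57 in PM and 9.87, 10.98 and 8.92 in IVM and rose by 4.67 ± 0.38 (adjusted p = 1.64e-05). APCDD1, an inhibitor of WNT signalling at the cell surface, was at 6.24, 5.91, 6.08 and 6.48 in PM and 12.23, 9.73 and 10.29 in IVM, a rise of 4.57 ± 0.55 that was largest in IVM 1. SPON2, a secreted matrix protein, was even among the arrays of each group, at 7.68, 7.84, 7.85 and 7.91 in PM and 12.68, 12.82 and 12.001 in IVM, a difference of 4.68 ± 0.43. RGS2, a brake on G protein signalling, differed within PM itself. It read 10.83, 5.89, 6.003 and 6.30 in PM and 13.51, 13.21 and 11.98 in IVM, so PM 1 lay between the other PM arrays and IVM, and the rise of 5.65 ± 1.01 has the largest standard error of the 15 largest. MOCOS, the molybdenum cofactor sulfurase, rose by 4.95 ± 0.54, PNLIPRP3 by 4.51 ± 0.66 and ERICH5 by 4.44 ± 0.78. Genes were eligible as largest rises or falls only if the groups did not overlap.

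The largest falls held genes of dividing cells, and also a calcium channel, a GABA receptor subunit and a nitric oxide synthase that were bright before culture. CKAP2, a protein of the mitotic spindle, stood at 12.44, 11.88, 12.15 and 12.24 in PM and 5.14, 7.34 and 7.91 in IVM, a fall of 5.38 ± 0.49 (adjusted p = 2.83e-05). The lowest PM array was still far above the highest IVM array. GABRP, a subunit of the GABA type A receptor, measured 10.28, 10.83, 9.05 and 11.75 in PM and 5.88, 5.76 and 6.14 in IVM, a difference of -4.55 ± 0.46. RYR2, a calcium release channel, had levels of 10.86, 10.79, 9.17 and 10.38 in PM and 6.12, 6.34 and 5.99 in IVM, a difference of -4.15 ± 0.40. In these genes the IVM arrays were close together and the PM arrays spread, with PM 3 the lowest. NOS2, the inducible nitric oxide synthase, was also lowest in PM 3, with 11.32, 12.09, 9.79 and 11.36 in PM and 6.68, 6.56 and 7.20 in IVM, and fell by 4.33 ± 0.49. GLCCI1, a gene named for its induction by glucocorticoid, gave 10.93, 10.94, 10.10 and 10.74 in PM and 6.20, 6.38 and 6.55 in IVM and fell by 4.30 ± 0.21 (adjusted p = 2.33e-06). DTL, the substrate receptor of a ubiquitin ligase that acts in S phase, was at 10.34, 9.46, 9.61 and 10.23 in PM and 4.57, 4.10 and 8.51 in IVM. Here IVM 3 came nearest to PM while IVM 1 and IVM 2 lay below the array medians, and the fall of 4.18 ± 0.87 carries a wide error. MAP6D1 fell by 4.77 ± 0.88, USP21 by 4.68 ± 0.57 and PYROXD1 by 4.15 ± 0.36. The probe sets annotated as USP14 gave the largest difference, -8.42 ± 0.47, with all 5 falling by 7.17 to 8.55, but the name is doubtful, since 1 of them was designed from the same source sequence as the probe set of the globin gene HBB.

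**Figure D2:**
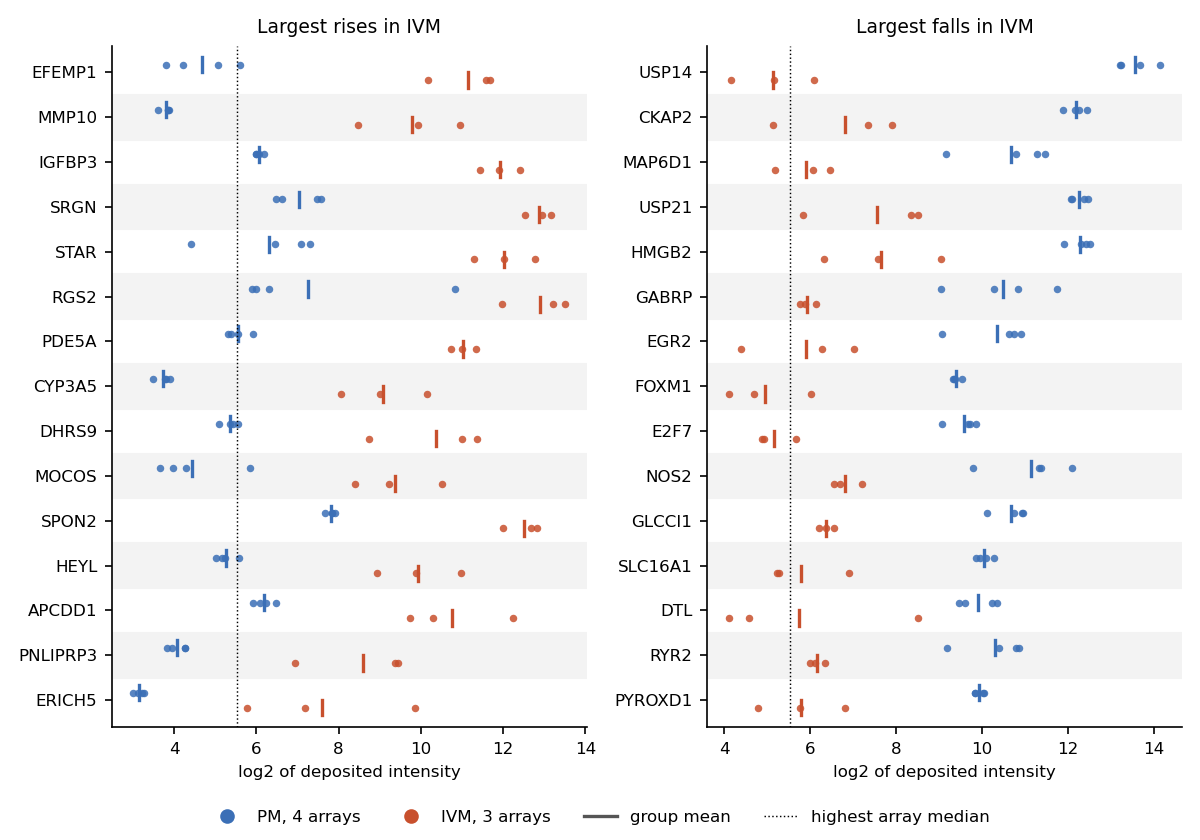
The 15 largest rises (left) and falls (right) by the naming rule, with log2 of the deposited intensity on the horizontal axis; dots are arrays (PM blue, 4; IVM orange, 3), vertical ticks are group means and the dotted line is the highest array median (5.53). The rule admits only genes in which no PM array overlaps an IVM array, so the lack of overlap is no result. PM 1 in RGS2 (10.83) and IVM 3 in DTL (8.51) lie toward the other group.

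Most cell cycle genes were lower. Of 45 measured cyclins, cyclin-dependent kinases and their regulators, 29 were lower in IVM, 4 higher and 12 not called, with a median difference of -0.99 against 0.12 over all genes. FOXM1, the transcription factor of genes needed for mitosis, read 9.32, 9.52, 9.36 and 9.35 in PM and 4.69, 4.11 and 6.02 in IVM, a difference of -4.45 ± 0.43. MKI67, the proliferation marker, stood at 10.30, 9.89, 10.05 and 10.11 in PM and 6.10, 5.43 and 6.99 in IVM, a difference of -3.91 ± 0.40. In both, the PM arrays lay within a narrow band and IVM 3 kept the highest culture level. CCNB1, the cyclin that drives entry into mitosis, measured 12.19, 11.91, 12.01 and 11.81 in PM and 7.39, 8.13 and 9.37 in IVM, a fall of 3.68 ± 0.41 (adjusted p = 8.03e-05). E2F7, a repressor among the E2F factors, fell by 4.41 ± 0.40, with only 1 of its 2 probe sets called. CCNE2, a cyclin of the entry into S phase, fell by 3.59 ± 0.24, the kinase gene WEE1 by 3.68 ± 0.38, CCNB2 by 3.44 ± 0.36 and CCNA2 by 3.29 ± 0.41, and these genes were chosen after their values were seen. CDKN1A, the inhibitor of cyclin-dependent kinases, went the other way, at 8.87, 10.81, 10.28 and 8.89 in PM and 12.85, 12.78 and 12.57 in IVM. Its IVM values were tightly grouped above a PM group that was itself split, with PM 2 and PM 3 higher than PM 1 and PM 4, and it rose by 3.02 ± 0.40 (adjusted p = 0.000253). The remaining rises were in GMNN, an inhibitor of replication licensing (1.59 ± 0.28), E2F1 (0.88 ± 0.12, with another of its probe sets lower) and CCND1 (0.39 ± 0.12), a call lost without IVM 2, PM 1 or PM 3, with differences from 0.28 to 0.44.

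DNA replication genes followed, with 27 of 42 measured genes lower and 1 higher, and a median of -1.12. MCM5, a subunit of the replicative helicase, had levels of 11.81, 11.83, 11.69 and 12.56 in PM and 8.40, 9.12 and 10.28 in IVM, a difference of -2.71 ± 0.42. GINS2, which works with that helicase, gave 10.69, 10.01, 9.91 and 10.31 in PM and 6.86, 7.55 and 8.53 in IVM, a difference of -2.59 ± 0.40. The culture arrays were ordered alike in both genes, with IVM 1 lowest and IVM 3 highest, and none reached the PM range. UHRF1, which carries DNA methylation through replication, was at 9.34, 8.97, 8.98 and 8.92 in PM and 5.27, 5.798 and 7.63 in IVM, a difference of -2.82 ± 0.49. TOP2A, the topoisomerase that untangles chromosomes, read 11.26, 10.57, 11.31 and 10.85 in PM and 6.67, 8.10 and 9.22 in IVM. TOP2A fell by 2.999 ± 0.66 (adjusted p = 0.00471), with IVM 3 the nearest to PM. POLA1, the catalytic subunit of the polymerase that primes replication, fell by 2.50 ± 0.22, MCM10 by 2.53 ± 0.55 and MCM2 by 2.43 ± 0.50. The rise, in RFC3, was 0.39 ± 0.15, and its call was lost without any of the 4 PM arrays, IVM 1, IVM 2 or 3 of the 4 VVM arrays, with differences between 0.23 and 0.51.

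Spindle and centromere genes were lower in most cases. All but 3 of 27 measured spindle and kinesin genes were lower, 24 in all and 21 of them at least 2-fold, at a median of -2.03. In limma's test 0 were higher, and 0 also at an unadjusted p under 0.05. KIF2C, a kinesin that depolymerises microtubules, stood at 10.66, 11.07, 10.65 and 10.58 in PM and 6.09, 6.69 and 8.33 in IVM, a difference of -3.70 ± 0.42. KIFC1, a kinesin that holds spindle poles together, measured 9.42, 10.60, 9.35 and 9.94 in PM and 5.72, 5.97 and 6.74 in IVM, a difference of -3.69 ± 0.36. MAD2L1, a protein of the spindle checkpoint, had levels of 9.45, 9.39, 9.40 and 8.60 in PM and 4.84, 4.77 and 6.74 in IVM, a difference of -3.76 ± 0.51, with IVM 1 and IVM 2 below the array medians. The cytokinesis regulator ECT2 fell by 3.59 ± 0.32, KIF4A by 3.32 ± 0.26, ANLN by 3.15 ± 0.32 and the securin gene PTTG1 by 3.07 ± 0.49. Of 38 genes of the centromere, kinetochore and condensin, 28 were lower and 2 higher, at a median of -1.32. CENPF, a protein of the outer kinetochore, gave 11.12, 10.99, 10.97 and 10.99 in PM and 6.66, 7.83 and 8.18 in IVM, so the PM values spanned a far smaller range than the fall of 3.46 ± 0.32 (adjusted p = 2.78e-05). ZWINT, which links the kinetochore to the checkpoint, was at 10.81, 10.71, 10.75 and 10.70 in PM and 7.35, 7.40 and 9.22 in IVM, a difference of -2.75 ± 0.38, with IVM 3 well above the other culture arrays. CENPK fell by 2.94 ± 0.33, OIP5 by 2.86 ± 0.32, and the centromeric histone gene CENPA by 2.60 ± 0.23. The 2 rises were small, 0.53 ± 0.15 for DSN1, lost without IVM 2, with differences from 0.40 to 0.60, and 0.51 ± 0.16 for KNL1, lost without IVM 1, IVM 3 or PM 3, with differences from 0.42 to 0.63.

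DNA repair genes fell in 18 of 29 measured cases, with 1 rise and a median of -0.89. NEIL3, a DNA glycosylase of dividing cells, read 9.36, 8.54, 8.19 and 9.23 in PM and 5.14, 4.62 and 5.03 in IVM, a difference of -3.90 ± 0.28. Each culture array lay below the array medians, so the transcript was near the dim end after culture. MSH6, of mismatch repair, remained bright at 12.38, 12.15, 11.67 and 12.27 in PM and 9.37, 9.35 and 10.48 in IVM and fell by 2.38 ± 0.27. BARD1, the partner of BRCA1, fell by 2.54 ± 0.35, the checkpoint kinase genes CHEK2 by 1.93 ± 0.26 and CHEK1 by 1.56 ± 0.32, and RAD54L by 2.07 ± 0.20. The rise was RAD51C (0.999 ± 0.23), which has another probe set that was lower. Chromatin genes fell in 26 of 43 cases, at a median of -0.72, and limma called 0 higher, with 1 at an unadjusted p under 0.05 and 1 called without VVM 3. HMGB2, a chromatin protein of proliferating cells, stood at 12.41, 12.51, 11.91 and 12.31 in PM and 6.32, 7.57 and 9.05 in IVM, a difference of -4.64 ± 0.49, with 1 of its 2 probe sets called. LMNB1, a lamin of the nuclear envelope, measured 9.57, 9.16, 9.16 and 9.42 in PM and 4.65, 6.17 and 7.17 in IVM, a difference of -3.33 ± 0.58. In both, the fall was largest in IVM 1 and smallest in IVM 3. The histone chaperone gene ASF1B fell by 1.95 ± 0.26, the maintenance methyltransferase gene DNMT1 by 1.94 ± 0.31 and the coactivator gene EP300 by 1.77 ± 0.14.

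With the hybridization level as a covariate, the medians of these lists were -0.78 for the cyclin list, -0.99 for replication, -1.996 for the spindle, -1.20 for the centromere, -0.43 for repair and -0.76 for chromatin.

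**Figure D3:**
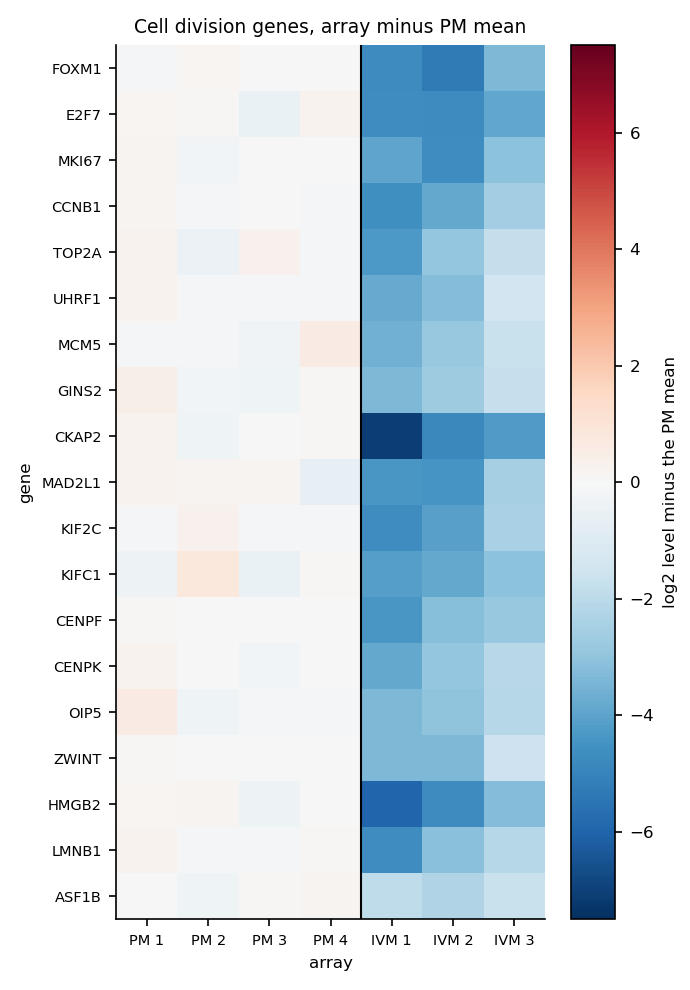
Each row is a gene named by the rule from the cell cycle, replication, spindle, centromere or chromatin lists, and each column an array. Colour gives the log2 level minus the gene's PM mean, from blue (lower) to red (higher). The rule took the largest differences of each list among called genes without overlap, so a clear difference in every row follows from that choice. Genes of these lists that rose or were not called are not drawn. The 3 IVM columns are blue in every row, from -1.95 on average in ASF1B to -5.38 in CKAP2, and the IVM 3 column is the palest in most rows.

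Ubiquitin ligases of the cell cycle, which destroy cyclins and replication factors, had few calls. Of 19 measured genes 5 were lower (26.3%) and 2 higher (10.5%), against 20.9% and 25.0% over all genes, and the median was -0.12. That median was -0.03 without IVM 1 or PM 4, -0.06 without IVM 2, -0.08 without PM 2 and 0.06 after cyclic loess. FBXW7, the F-box protein that targets cyclin E and MYC, had levels of 10.19, 10.57, 10.40 and 10.28 in PM and 7.98, 7.18 and 9.02 in IVM and fell by 2.30 ± 0.38. FZR1, an activator of the anaphase-promoting complex, fell by 1.17 ± 0.16, its inhibitor FBXO5 by 1.56 ± 0.33 and the subunit gene ANAPC13 by 1.27 ± 0.23. The fifth fall, in CCNF (-0.55 ± 0.19), was lost without IVM 1, IVM 2, IVM 3, PM 1, PM 2, PM 3 or PM 4, with differences from -0.61 to -0.49. The rises were CDC26 (0.77 ± 0.18) and ANAPC5 (0.42 ± 0.14), the latter lost without IVM 1, IVM 3, PM 1, PM 3 or PM 4, with differences from 0.35 to 0.53.

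**Figure D4:**
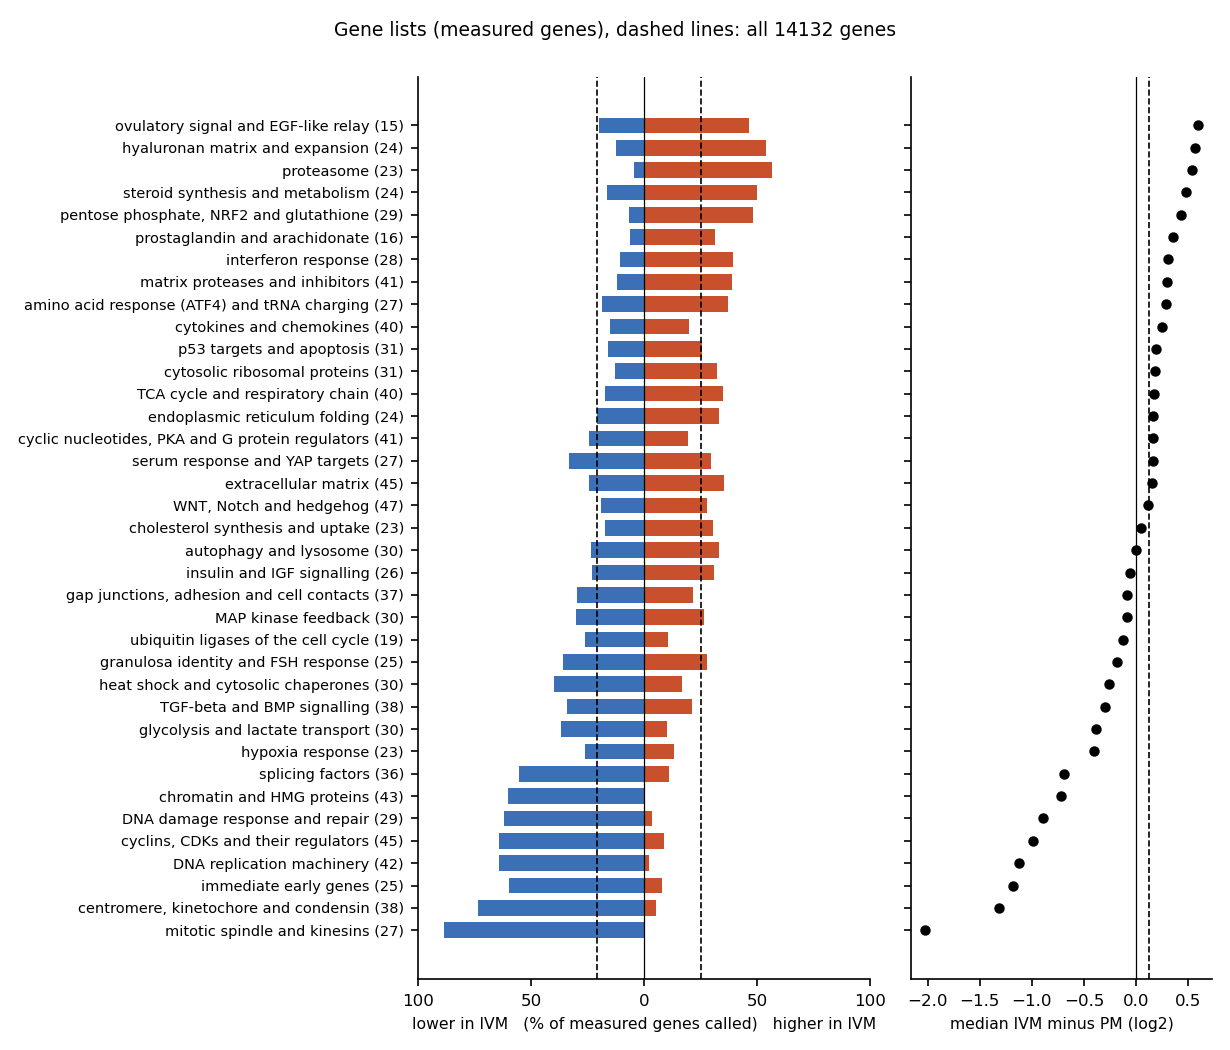
For each gene list, with its number of measured genes, bars give the percent of those genes called lower (blue, to the left) and higher (orange, to the right) in IVM, and dots give the median log2 difference; dashed lines are the values over all 14132 genes (20.9%, 25.0% and 0.12). The spindle, centromere, immediate early, replication, cyclin, repair, chromatin and splicing lists reach far past the left dashed line, and the proteasome, hyaluronan, steroid, glutathione and ovulatory relay lists past the right; the marker lists of other cells are not drawn.

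Immediate early genes, transcription factors that cells switch on within minutes of being stimulated, fell in 15 of 25 measured cases and rose in 2, at a median of -1.18, or -2.05 with the hybridization level as a covariate. KLF6, a zinc finger factor, gave 12.39, 12.08, 12.47 and 12.42 in PM and 10.06, 9.47 and 9.14 in IVM. NR4A1, an orphan nuclear receptor induced by gonadotropins, was at 11.94, 11.59, 11.50 and 12.26 in PM and 9.09, 8.90 and 9.29 in IVM. KLF6 and NR4A1 fell by 2.78 ± 0.19 and 2.73 ± 0.24, without overlap of the groups, as the naming rule requires. EGR2 read 10.63, 9.07, 10.73 and 10.91 in PM and 7.02, 4.38 and 6.27 in IVM, a difference of -4.45 ± 0.57, with PM 2 below the other PM arrays and 1 of its 2 probe sets called. KLF4 stood at 10.14, 9.66, 10.07 and 9.13 in PM and 8.31, 5.45 and 5.85 in IVM, a difference of -3.21 ± 0.70, with IVM 1 the nearest to PM. NR4A2 fell by 2.54 ± 0.18, MAFF by 2.49 ± 0.22 and IER2 by 2.31 ± 0.30, while the fall of MYC, 1.59 ± 0.45, was lost without IVM 2, with differences from -1.76 to -1.31. The 2 rises were in genes for proteins that bind AU-rich mRNA and speed its decay, ZFP36 (2.24 ± 0.49) and ZFP36L1 (0.38 ± 0.12), the latter lost without IVM 1, IVM 2, PM 1 or PM 3, with differences from 0.34 to 0.44. Targets of serum response factor and of YAP, a coactivator that responds to cell shape, moved both ways. Of 27 measured, 8 were higher (29.6%) and 9 lower (33.3%), against 25.0% and 20.9% over all genes. CCN2, a matricellular target of YAP, measured 11.37, 12.24, 10.24 and 11.67 in PM and 9.17, 7.85 and 7.49 in IVM and fell by 3.21 ± 0.54, and AMOTL2 fell by 1.74 ± 0.20. AXL, a receptor tyrosine kinase, had levels of 7.53, 8.05, 7.62 and 7.58 in PM and 9.94, 10.53 and 9.75 in IVM and rose by 2.38 ± 0.20, and TEAD4, a DNA-binding partner of YAP, rose by 1.82 ± 0.33.

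Genes of the hyaluronan matrix that spreads the cumulus were mostly higher: 13 of 24 measured genes rose and 3 fell, at a median of 0.56. SRGN, a proteoglycan core protein, gave 7.48, 7.56, 6.48 and 6.62 in PM and 13.16, 12.96 and 12.53 in IVM, a rise of 5.85 ± 0.28 (adjusted p = 2.33e-06). TNFAIP6, which transfers heavy chains onto hyaluronan, was at 4.42, 4.82, 4.57 and 4.52 in PM and 9.22, 8.11 and 9.002 in IVM, a difference of 4.20 ± 0.51. All PM arrays lay below the array medians and all IVM arrays far above them. UGP2, which makes the UDP-glucose from which hyaluronan is built, read 10.002, 9.51, 9.57 and 9.73 in PM and 12.91, 12.64 and 12.06 in IVM and rose by 2.83 ± 0.20. HAS2, the hyaluronan synthase, stood at 4.42, 6.90, 4.35 and 4.72 in PM and 8.54, 7.60 and 6.99 in IVM, so PM 2 nearly reached the lowest IVM array, and the rise was 2.61 ± 0.58 (adjusted p = 0.0049). ADAMTS1, a protease that cleaves versican, measured 4.48, 5.29, 5.28 and 5.25 in PM and 7.79, 7.98 and 8.23 in IVM, a difference of 2.92 ± 0.58. VCAN, versican itself, had levels of 12.76, 12.72, 12.75 and 12.51 in PM and 13.79, 13.81 and 13.61 in IVM. Versican was bright before culture and rose by only 1.05 ± 0.13, with 4 of its 5 probe sets called. PTX3, which ties the matrix together, gave 2.64, 2.76, 2.66 and 2.63 in PM and 6.54, 3.89 and 2.94 in IVM. IVM 3 lay just above the PM arrays and IVM 1 far above them. The difference of 1.79 ± 0.81 was not called (adjusted p = 0.0961), but was 2.55 and called without IVM 3 (adjusted p = 0.0313). The hyaluronan receptor gene CD44 rose by 1.13 ± 0.20. The falls were UGDH (-0.88 ± 0.21), which oxidises UDP-glucose for hyaluronan, TNFAIP2 (-1.30 ± 0.35), lost without IVM 1 or IVM 2, with differences from -1.79 to -0.98, and HAPLN3 (-0.58 ± 0.18), lost without IVM 1 or IVM 3, with differences from -0.71 to -0.43, so that 1 fall remained without IVM 1.

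Relay genes of the ovulatory signal rose in 7 of 15 measured cases and fell in 3, at a median of 0.60, or 0.22 with the hybridization level as a covariate. CEBPA, a C/EBP transcription factor, was at 4.80, 4.09, 4.22 and 6.45 in PM and 9.65, 8.67 and 8.15 in IVM, a difference of 3.93 ± 0.52. CEBPD, of the same family, read 9.35, 9.60, 9.66 and 9.48 in PM and 11.77, 12.01 and 12.04 in IVM, a difference of 2.42 ± 0.21. PM 4 was the highest of the PM arrays in CEBPA but stayed below all IVM arrays. CEBPB, which with CEBPA is needed for ovulation in mice, rose by 2.21 ± 0.34, and PGR, the progesterone receptor, stood at 5.52, 5.94, 5.74 and 4.90 in PM and 7.49, 7.06 and 7.18 in IVM and rose by 1.72 ± 0.26. ERBB3, a partner receptor of the EGF receptor family, rose by 2.24 ± 0.52, and the transcription factor gene RUNX2 by 0.60 ± 0.13. The EGF-like ligands went opposite ways. AREG measured 4.41, 4.70, 4.32 and 5.44 in PM and 8.08, 6.29 and 5.52 in IVM, a difference of 1.92 ± 0.58 whose call was lost without IVM 1, PM 1 or PM 3, with differences from 1.19 to 2.47, and BTC had levels of 9.52, 8.49, 8.28 and 9.58 in PM and 4.79, 5.48 and 5.41 in IVM, a fall of 3.74 ± 0.38 with 1 of its 2 probe sets called. EGFR, the receptor of both, gave 6.89, 7.13, 7.64 and 8.14 in PM and 5.77, 5.86 and 6.16 in IVM, so the groups did not overlap and the level fell by 1.52 ± 0.30. NRIP1, a corepressor of nuclear receptors, fell by 2.38 ± 0.32.

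**Figure D5:**
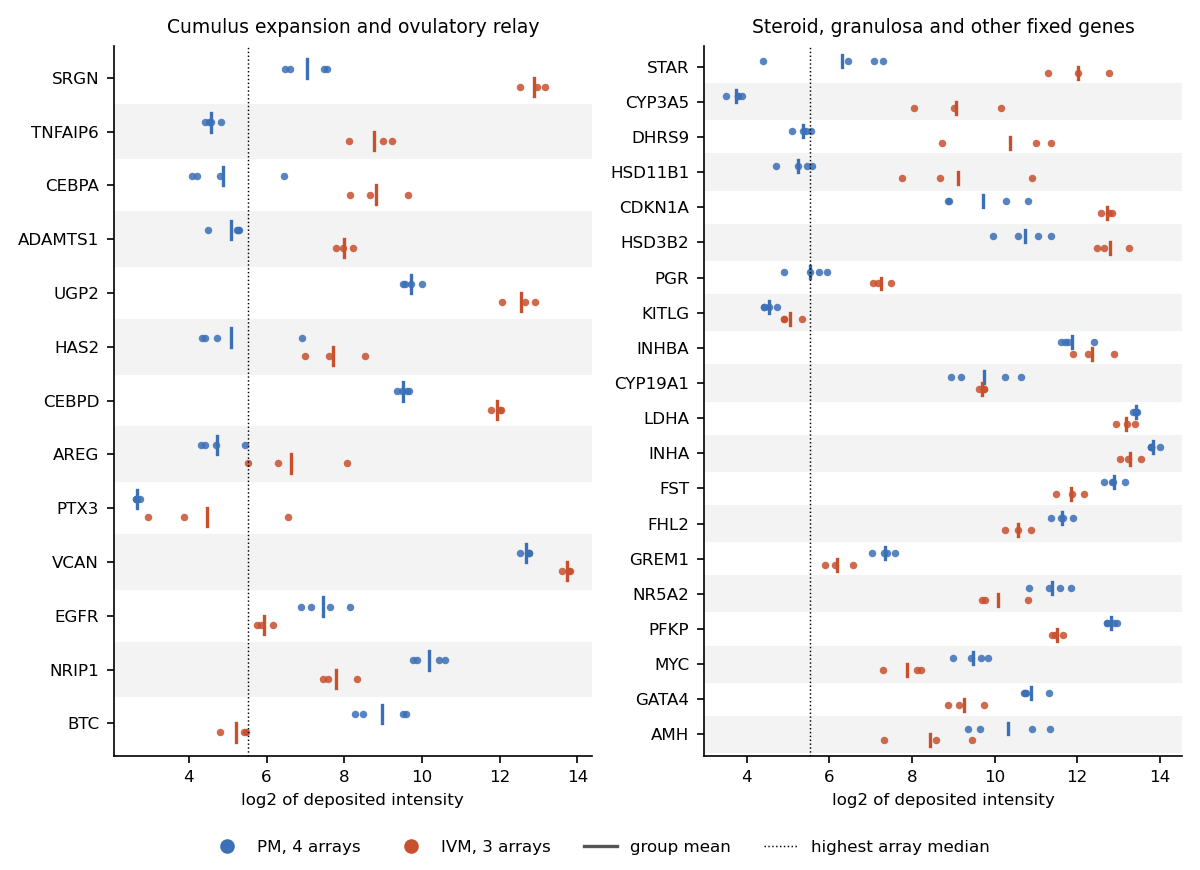
Named genes of cumulus expansion and the ovulatory relay (left) and of steroid synthesis, granulosa identity and the fixed gene set (right), with log2 of the deposited intensity on the horizontal axis; dots are arrays (PM blue, 4; IVM orange, 3), ticks are group means and the dotted line is the highest array median (5.53). SRGN, TNFAIP6, STAR, CYP3A5 and DHRS9 have group means more than 4 log2 units apart, while CYP19A1, INHBA, LDHA and AMH overlap.

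Steroid genes rose in 12 of 24 measured cases and fell in 4, at a median of 0.47, or 0.31 with the hybridization level as a covariate. STAR, which brings cholesterol into the mitochondrion, was at 7.08, 4.40, 7.31 and 6.45 in PM and 12.78, 12.01 and 11.29 in IVM, so even the spread within PM was smaller than the rise of 5.72 ± 0.60. HSD3B2, which makes progesterone, read 10.56, 9.96, 11.05 and 11.38 in PM and 13.27, 12.65 and 12.49 in IVM and rose by 2.07 ± 0.40. HSD11B1, which regenerates active glucocorticoid, stood at 5.25, 4.71, 5.58 and 5.47 in PM and 10.91, 8.68 and 7.75 in IVM, a difference of 3.87 ± 0.58, with the 3 culture arrays apart from each other but all above PM. FDX1, the electron donor of mitochondrial steroid hydroxylases, rose by 1.01 ± 0.20, TSPO by 1.07 ± 0.27 and the transcription factor gene NR5A1 by 0.99 ± 0.17. CYP19A1, the aromatase that makes oestrogen, measured 9.20, 10.64, 10.25 and 8.94 in PM and 9.74, 9.63 and 9.74 in IVM. Its IVM arrays lay inside the PM range, with a difference of -0.05 ± 0.41 that turned positive without PM 2 or PM 3. HSD17B1, which completes oestradiol, differed by -1.50 ± 0.46, lost without IVM 1, PM 1 or PM 4, with differences from -1.84 to -1.01. The other falls were NR5A2 (-1.31 ± 0.32), the membrane progesterone receptor component PGRMC2 (-0.77 ± 0.17, with another probe set higher) and PGRMC1 (-0.81 ± 0.21), lost without IVM 2, with differences from -0.96 to -0.59. Cholesterol genes were near the background, with 7 of 23 higher and 4 lower (4 and 2 without IVM 1, 4 higher without PM 2). The counts were 4 and 5 after centring, and 8 and 1 after cyclic loess. The falls were SREBF2 (-0.69 ± 0.16, with another probe set higher), DHCR7 (-1.39 ± 0.37), lost without IVM 2, with differences from -1.66 to -1.11, PMVK (-0.61 ± 0.18), lost without IVM 1, with differences from -0.71 to -0.50, and NPC2 (-0.49 ± 0.18), lost without IVM 1, IVM 2, IVM 3, PM 3, PM 4, VVM 1 or VVM 2, with differences from -0.57 to -0.37. HSD17B7, an enzyme of cholesterol synthesis, had levels of 10.37, 9.38, 9.89 and 9.63 in PM and 12.48, 11.65 and 11.14 in IVM and rose by 1.94 ± 0.29, SREBF1 rose by 1.17 ± 0.25 and the cholesterol exporter gene NPC1 by 0.85 ± 0.18.

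Genes that mark granulosa identity and the response to FSH were split, with 7 of 25 higher (28.0%) and 9 lower (36.0%). Over all genes the shares were 25.0% and 20.9%, and the median of the list was -0.19. That median was -0.09 without IVM 1, -0.38 without IVM 3, -0.32 without PM 4 and -0.03 with the hybridization level as a covariate. GATA4, a transcription factor of granulosa cells, gave 10.76, 11.32, 10.73 and 10.71 in PM and 8.88, 9.13 and 9.75 in IVM and fell by 1.62 ± 0.23 (adjusted p = 0.000323). NR5A2, an orphan nuclear receptor needed for ovulation in mice, was at 11.85, 10.85, 11.60 and 11.31 in PM and 9.69, 9.78 and 10.81 in IVM, with IVM 3 just under the lowest PM array. FST, which binds activin, read 13.16, 12.66, 12.85 and 12.87 in PM and 11.88, 11.48 and 12.16 in IVM. INHA, the inhibin alpha subunit, stood at 13.78, 13.78, 14.01 and 13.80 in PM and 13.23, 13.05 and 13.55 in IVM. Both kept a high level and fell by 1.04 ± 0.24 and 0.57 ± 0.13. FHL2 fell by 1.06 ± 0.19 and NPR2, the receptor of C-type natriuretic peptide that holds the oocyte in meiotic arrest, by 0.92 ± 0.17, while NPPC, the gene of that peptide, rose by 0.74 ± 0.15. AMH, the hormone of growing follicles, measured 10.91, 9.36, 9.65 and 11.34 in PM and 7.32, 9.44 and 8.58 in IVM, and here IVM 2 overlapped PM 2. Its fall of 1.87 ± 0.53 was lost without IVM 1, with differences from -2.37 to -1.30. INHBA, the activin subunit, had levels of 11.79, 11.70, 12.41 and 11.62 in PM and 12.26, 11.90 and 12.90 in IVM, overlapped and was not called (0.48 ± 0.33). The rise of KITLG (0.51 ± 0.14) stayed below the array medians in both groups and was lost without IVM 2, with differences from 0.37 to 0.59. In bulk samples, fewer cells of a type and less RNA per cell cannot be told apart.

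TGF-beta and BMP genes fell more often than they rose, with 13 of 38 lower (34.2%) and 8 higher (21.1%), at a median of -0.30 (-0.20 without IVM 1). Over all genes 20.9% were lower and 25.0% higher. The inhibitory SMADs rose. SMAD7 gave 6.10, 5.36, 5.07 and 6.87 in PM and 9.26, 9.59 and 9.25 in IVM, a difference of 3.51 ± 0.34. SMAD6 was at 5.02, 4.44, 4.53 and 5.94 in PM and 8.94, 9.33 and 7.14 in IVM, a difference of 3.49 ± 0.54. In both genes PM 4 was the highest of the PM arrays and still lay below every IVM array. SMAD4, the shared partner of the receptor-activated SMADs, read 8.19, 7.44, 8.05 and 7.99 in PM and 5.07, 5.11 and 6.27 in IVM, a difference of -2.43 ± 0.31. The repressor TGIF1 stood at 10.46, 10.31, 10.75 and 10.35 in PM and 7.92, 7.42 and 7.96 in IVM, a difference of -2.70 ± 0.18. Receptor-activated SMADs fell as well, SMAD5 by 1.68 ± 0.26, SMAD2 by 1.39 ± 0.19 and SMAD3 by 1.11 ± 0.22. FSTL3, which binds activin, rose by 2.16 ± 0.27, TGFB1 by 1.06 ± 0.14 and the receptor gene TGFBR2 by 0.60 ± 0.16. The BMP antagonist gene GREM1 fell by 1.14 ± 0.19 in its brightest probe set, and its other probe set rose.

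Insulin and IGF genes moved both ways, with 8 of 26 measured genes higher (30.8%) and 6 lower (23.1%). Over all genes the shares were close to these, 25.0% and 20.9%. The called genes included rises of the binding proteins IGFBP3, IGFBP5 and IGFBP6 and falls of the relays IRS1, AKT1 and AKT2 below the receptors. These are called members only, and 12 of the 26 were not called, so they give no direction for the pathway. IGFBP3 measured 5.98, 5.99, 6.05 and 6.18 in PM and 12.41, 11.44 and 11.90 in IVM, a difference of 5.86 ± 0.32. IGFBP5 had levels of 6.51, 6.26, 6.78 and 6.13 in PM and 8.35, 8.04 and 9.08 in IVM, a difference of 2.07 ± 0.24. STC1, an inhibitor of the proteases that cleave such binding proteins, gave 7.84, 8.67, 9.01 and 8.75 in PM and 13.88, 12.02 and 12.43 in IVM, a rise of 4.21 ± 0.40 (adjusted p = 3.26e-05). IGFBP6 rose by 1.08 ± 0.24 and the protease gene PAPPA2 by 1.05 ± 0.11. IRS1, the docking protein of the insulin and IGF receptors, was at 7.37, 9.06, 8.67 and 6.79 in PM and 5.76, 6.28 and 6.08 in IVM and fell by 1.93 ± 0.45, with PM 1 and PM 4 near the culture range. AKT1 fell by 1.50 ± 0.34, AKT2 by 1.10 ± 0.12 and PIK3R3, a regulatory subunit of the lipid kinase upstream of AKT, by 1.77 ± 0.29.

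Genes of glucose use and lactate export fell in part. Of 30 measured genes of glycolysis and lactate transport 11 were lower and 3 higher, at a median of -0.39, or -0.20 with the hybridization level as a covariate. SLC16A1, a lactate and pyruvate carrier, read 9.96, 10.27, 10.08 and 9.84 in PM and 5.26, 5.23 and 6.89 in IVM, a difference of -4.24 ± 0.37. SLC2A1, a glucose transporter, stood at 8.80, 8.86, 8.75 and 9.61 in PM and 7.24, 7.13 and 6.03 in IVM, a difference of -2.20 ± 0.38. IVM 1 and IVM 2 fell below the array medians in SLC16A1 and IVM 3 did not. PFKL fell by 2.05 ± 0.21 and PFKP by 1.32 ± 0.25, both subunits of phosphofructokinase, and PKM, the pyruvate kinase, by 1.17 ± 0.16. PDP1, the phosphatase that activates pyruvate dehydrogenase, measured 8.41, 8.55, 8.02 and 7.92 in PM and 5.82, 5.51 and 6.70 in IVM, a difference of -2.21 ± 0.28. LDHA, which makes lactate, had levels of 13.44, 13.44, 13.36 and 13.43 in PM and 13.40, 12.94 and 13.20 in IVM and was not called (-0.24 ± 0.16). PCK1, an enzyme of gluconeogenesis, gave 3.63, 3.85, 4.28 and 5.66 in PM and 6.28, 6.93 and 8.27 in IVM and rose by 2.81 ± 0.50, and the other 2 rises, ENO2 (0.65 ± 0.23) and GPI (0.61 ± 0.17), were lost without IVM 1, IVM 2, PM 1, PM 3 or PM 4, with differences from 0.48 to 0.75, and lost without IVM 1 or IVM 2, with differences from 0.53 to 0.70. This count was 1 without IVM 2 and 5 without IVM 3. Hypoxia genes overlap with this list, and 6 of 23 were lower (26.1%) and 3 higher (13.0%), against 20.9% and 25.0% over all genes. P4HA1, a collagen prolyl hydroxylase, was at 11.81, 11.92, 11.90 and 12.03 in PM and 7.40, 8.16 and 8.74 in IVM, a difference of -3.81 ± 0.45. ANGPTL4, a lipase inhibitor, read 7.85, 8.03, 9.39 and 8.48 in PM and 11.05, 11.16 and 11.03 in IVM, a difference of 2.64 ± 0.30. The groups did not overlap in either gene, as the naming rule requires, and MXI1, an antagonist of MYC, fell by 2.31 ± 0.32. DDIT4, an inhibitor of mTOR, rose by 1.34 ± 0.36, and LOX by 3.26 ± 0.92, a call lost without IVM 1, with differences from 2.77 to 3.77. With the hybridization level as a covariate the hypoxia median went from -0.40 (-0.26 without IVM 1) to 0.23.

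The citric acid cycle and respiratory chain had 14 of 40 genes higher (35.0%) and 7 lower (17.5%), against 25.0% and 20.9% over all genes. The counts were 10 and 10 after centring, and 16 and 7 after cyclic loess. The highest rise was 1.23, in IDH3G (1.23 ± 0.15), followed by ATP5MC1 (1.14 ± 0.17), MDH2 (1.11 ± 0.13) and SDHB (0.88 ± 0.17). The falls reached -2.03 and held regulators of mitochondrial gene expression. PPARGC1A, a coactivator of mitochondrial biogenesis, stood at 6.81, 5.01, 6.13 and 6.06 in PM and 4.44, 3.84 and 3.66 in IVM, a difference of -2.03 ± 0.37. TFAM, which packages mitochondrial DNA, measured 8.21, 8.06, 8.45 and 8.16 in PM and 6.36, 6.90 and 7.21 in IVM, a difference of -1.40 ± 0.19. NRF1, a transcription factor of nuclear genes for respiration, fell by 1.25 ± 0.14, IDH3B by 1.65 ± 0.34 and ATP5F1B by 1.45 ± 0.22.

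Redox and glutathione genes rose in 14 of 29 measured cases and fell in 2, at a median of 0.43. SLC7A11, which imports cystine for glutathione, had levels of 3.67, 5.24, 3.93 and 3.94 in PM and 6.51, 8.73 and 9.39 in IVM, a difference of 4.01 ± 0.58, with IVM 1 the lowest of the culture arrays and PM 2 the highest before culture. SRXN1, which repairs oxidised peroxiredoxins, gave 7.75, 7.99, 7.78 and 8.02 in PM and 9.76, 9.70 and 9.50 in IVM, a rise of 1.77 ± 0.20 (adjusted p = 0.000104). TALDO1, of the pentose phosphate pathway, rose by 1.12 ± 0.12, PRDX4 by 0.95 ± 0.15, GSTP1 by 0.79 ± 0.13 and the glutathione synthesis gene GCLM by 0.64 ± 0.15. MT2A, a metallothionein, was at 11.67, 13.29, 13.12 and 12.50 in PM and 14.13, 13.98 and 13.84 in IVM, a difference of 1.33 ± 0.33, so both groups were bright. The falls were GSTA4 (-1.15 ± 0.23) and ME1 (-1.01 ± 0.21), the latter with another probe set that was higher. Genes of the amino acid response and of tRNA charging rose in 10 of 27 cases (37.0%) and fell in 5 (18.5%), against 25.0% and 20.9% over all genes. ASNS, which makes asparagine, read 6.09, 8.11, 6.76 and 6.42 in PM and 8.90, 10.29 and 11.57 in IVM, a difference of 3.41 ± 0.60. TRIB3, a pseudokinase induced by that response, stood at 4.98, 5.46, 5.31 and 5.38 in PM and 6.66, 7.25 and 7.66 in IVM, a difference of 1.91 ± 0.20. In both, IVM 3 was the highest. YARS1, a tyrosine tRNA ligase, rose by 1.59 ± 0.20, WARS1 by 0.88 ± 0.20 and the transporter gene SLC7A5 by 0.78 ± 0.16. ATF4, the factor the list is named for, fell by 0.85 ± 0.21, SARS1 by 1.05 ± 0.18 and ALDH18A1 by 0.92 ± 0.18. The falls of EIF2AK3 (-0.98 ± 0.30) and GPT2 (-0.49 ± 0.15) were lost without IVM 2, PM 3 or PM 4, with differences from -1.17 to -0.75, and lost without IVM 1, IVM 2 or PM 1, with differences from -0.59 to -0.39, which leaves 3 falls without IVM 2.

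Genes of protein handling moved both ways. The proteasome had 13 of 23 genes higher and 1 lower, at a median of 0.54, with 9 and 2 after centring, and 16 and 1 after cyclic loess. PSMB6, a catalytic subunit, measured 11.08, 10.92, 11.30 and 11.07 in PM and 12.01, 12.10 and 12.03 in IVM. PSMD6, of the regulatory cap, had levels of 10.13, 10.07, 10.16 and 10.25 in PM and 11.19, 10.73 and 11.35 in IVM. The PM arrays of each spanned less than the rises of 0.95 ± 0.11 and 0.93 ± 0.15. PSME3, an activator cap of nuclear proteasomes, fell by 0.99 ± 0.18, and 2 genes were lower without IVM 3 or PM 2. Heat shock genes and cytosolic chaperones fell in 12 of 30 cases and rose in 5. HSF2, a heat shock factor, gave 9.08, 9.71, 9.20 and 8.82 in PM and 6.67, 5.87 and 6.62 in IVM, a difference of -2.82 ± 0.23. FKBP4, a cochaperone of steroid receptors, was at 10.75, 10.28, 10.71 and 10.60 in PM and 9.01, 8.22 and 9.20 in IVM, a difference of -1.77 ± 0.23. FKBP5, its relative that is induced by glucocorticoid and progesterone, went up, at 5.82, 5.803, 5.86 and 6.03 in PM and 8.17, 8.02 and 8.23 in IVM, a rise of 2.26 ± 0.30. CRYAB, a small heat shock protein, read 6.40, 6.27, 6.47 and 6.39 in PM and 11.63, 9.95 and 6.97 in IVM, so its rise of 3.13 ± 0.83 came mainly from IVM 1 and IVM 2. The other rises were AHSA1 (0.68 ± 0.13), HSPA4 (0.58 ± 0.14, with another probe set lower) and BAG2 (0.81 ± 0.28), lost without IVM 1, IVM 2, IVM 3, PM 2, PM 3 or PM 4, with differences from 0.73 to 0.98. In the endoplasmic reticulum 8 of 24 folding genes were higher (33.3%) and 5 lower (20.8%), against 25.0% and 20.9% over all genes. After centring 4 were higher and 5 lower, after cyclic loess 11 and 3, and 4 to 5 were higher without IVM 3, PM 1, PM 2 or PM 4. The falls were EDEM1 (-0.73 ± 0.14), PDIA3 (-0.60 ± 0.15), PDIA6 (-1.18 ± 0.20) and HSP90B1 (-0.80 ± 0.18), the last pair with another probe set higher, and HERPUD1 (-0.53 ± 0.19), a call lost without IVM 1, IVM 2, PM 2, PM 3 or any VVM array. SEC61B, of the translocation channel, stood at 10.81, 10.77, 10.88 and 10.85 in PM and 11.72, 11.88 and 11.52 in IVM, a difference of 0.88 ± 0.12. Splicing factors fell in 20 of 36 cases and rose in 4, at a median of -0.69. HNRNPH1 measured 11.69, 11.90, 11.72 and 11.52 in PM and 9.71, 10.003 and 10.003 in IVM, a difference of -1.81 ± 0.20. SNRPB, a core protein of spliceosomal particles, had levels of 12.63, 12.86, 12.43 and 12.99 in PM and 11.26, 11.17 and 11.18 in IVM, a difference of -1.53 ± 0.15. HNRNPC fell by 1.54 ± 0.17 and HNRNPA1 by 1.53 ± 0.17, while SF3B2 (0.79 ± 0.13), SNRPE (0.58 ± 0.15), SF3A3 (0.70 ± 0.19) and PRPF31 (0.62 ± 0.18) rose, the last pair lost without IVM 3, with differences from 0.52 to 0.85, and lost without IVM 2, with differences from 0.47 to 0.74.

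Matrix genes moved both ways, with 16 of 45 measured genes higher (35.6%) and 11 lower (24.4%, 6 genes without IVM 1). Over all genes the shares were 25.0% and 20.9%, and after centring 14 matrix genes were higher and 13 lower. LAMB1, a laminin chain of basement membranes, gave 5.09, 4.78, 4.73 and 5.48 in PM and 8.02, 8.74 and 7.44 in IVM. LOXL1, which crosslinks elastin, was at 6.33, 6.23, 5.06 and 7.14 in PM and 8.48, 9.12 and 9.40 in IVM. Both were dim or moderate before culture and rose by 3.04 ± 0.31 and 2.81 ± 0.45. COL18A1 rose by 2.45 ± 0.33, COL12A1 by 2.002 ± 0.27 and the fibronectin gene FN1 by 1.92 ± 0.36, while FBLN1 fell by 2.75 ± 0.48 and the basement membrane collagen gene COL4A5 by 2.69 ± 0.34. Of the proteases and their inhibitors 16 of 41 were higher (39.0%, 10 genes without IVM 1) and 5 lower (12.2%, 3 genes without IVM 1). MMP10 read 3.61, 3.86, 3.88 and 3.86 in PM and 10.94, 8.46 and 9.92 in IVM, a difference of 5.98 ± 0.73. CTSH, a lysosomal protease, stood at 6.85, 6.83, 6.97 and 6.78 in PM and 9.70, 9.64 and 8.64 in IVM, a difference of 2.47 ± 0.37. TIMP3, an inhibitor bound to matrix, measured 7.98, 7.99, 8.32 and 7.68 in PM and 8.76, 9.73 and 10.20 in IVM and rose by 1.57 ± 0.27, MMP14 rose by 0.98 ± 0.10 and MMP2 by 0.75 ± 0.13. ADAM12, a metalloproteinase at the membrane, had levels of 11.54, 11.86, 11.44 and 11.31 in PM and 9.55, 9.01 and 9.83 in IVM and fell by 2.07 ± 0.26. The other falls were CTSK (-1.55 ± 0.42), ADAMTS6 (-1.34 ± 0.30), CTSD (-0.57 ± 0.15), lost without IVM 1, with differences from -0.66 to -0.46, and MMP7 (-0.46 ± 0.14), lost without IVM 1 or PM 1, with differences from -0.51 to -0.39, the last pair with probe sets that disagree.

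Genes of cell contacts moved both ways, with 8 of 37 measured genes higher (21.6%) and 11 lower (29.7%). Over all genes the shares were 25.0% and 20.9%. CLDN1, a tight junction protein, gave 4.57, 4.32, 4.96 and 3.56 in PM and 9.49, 7.16 and 6.07 in IVM, a difference of 3.23 ± 0.65. GJA5, a connexin, was at 8.50, 9.77, 8.35 and 9.32 in PM and 11.31, 10.64 and 12.15 in IVM, a difference of 2.38 ± 0.62. The 3 culture arrays of CLDN1 differ more from each other than the PM arrays do. VCAM1, a cell adhesion molecule, read 10.08, 9.77, 11.69 and 10.11 in PM and 6.46, 7.21 and 7.15 in IVM, a fall of 3.47 ± 0.44 (adjusted p = 0.000194), and CTNND1, which holds cadherins at the membrane, stood at 10.61, 10.68, 10.45 and 10.13 in PM and 8.68, 8.22 and 8.85 in IVM, a difference of -1.89 ± 0.20. DSP, of desmosomes, fell by 1.51 ± 0.18, and TJP1, a scaffold of tight and gap junctions, by 1.48 ± 0.22. ITGA8 rose by 1.09 ± 0.11 and ITGB3 by 0.72 ± 0.17.

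Second messenger genes were near the background, with 8 of 41 higher (5 without IVM 2) and 10 lower. PDE5A, a phosphodiesterase of cyclic GMP, measured 5.38, 5.32, 5.92 and 5.55 in PM and 11.35, 10.73 and 10.999 in IVM, a rise of 5.48 ± 0.31 (adjusted p = 3.48e-06). CREB1, the transcription factor activated by cyclic AMP, had levels of 10.22, 10.45, 10.33 and 9.97 in PM and 7.37, 7.65 and 7.58 in IVM and fell by 2.71 ± 0.16, with 1 of its 2 probe sets called. ADCY9, an adenylyl cyclase, fell by 1.83 ± 0.33 and ADCY6 by 0.84 ± 0.12. Of 30 genes of the MAP kinase cascade and its feedback, 8 were higher (26.7%) and 9 lower (30.0%). Over all genes the shares were 25.0% and 20.9%. MAP3K1 gave 10.27, 9.98, 10.34 and 10.30 in PM and 7.88, 7.49 and 7.75 in IVM, a difference of -2.51 ± 0.16, and the GTPases NRAS and HRAS moved in opposite directions, by -1.81 ± 0.18 and 1.43 ± 0.20. NRAS fell in all of its 3 probe sets. The feedback inhibitor genes SPRY2 and SPRY1 also parted, by -1.76 ± 0.33 and 1.02 ± 0.23. Of 47 WNT, Notch and hedgehog genes 13 were higher (27.7%) and 9 lower (19.1%), near the shares over all genes, and 9 and 10 after centring. The WNT receptor gene FZD7 was at 7.12, 7.11, 7.33 and 7.60 in PM and 3.95, 4.28 and 2.99 in IVM. FZD4, of the same family, read 12.06, 11.65, 11.999 and 11.82 in PM and 8.94, 9.17 and 10.07 in IVM. They fell by 3.55 ± 0.28 and 2.49 ± 0.25, the WNT effector TCF7L1 by 2.07 ± 0.21 and the Notch target HEY2 by 1.59 ± 0.15, while GLI2, a hedgehog effector, rose by 1.76 ± 0.27.

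Cytokine and interferon genes included receptors that rose and fell. OSMR, the oncostatin M receptor, stood at 8.93, 10.18, 9.63 and 9.22 in PM and 12.93, 12.46 and 12.65 in IVM, a difference of 3.19 ± 0.28, and its partner IL6ST rose by 2.12 ± 0.55. NFKBIZ, a nuclear regulator of NF-kappa-B, measured 10.34, 7.94, 8.23 and 10.04 in PM and 6.54, 4.88 and 5.77 in IVM, a difference of -3.41 ± 0.74, with wide spread in both groups and 1 of 2 probe sets called. CXCR4, a chemokine receptor, fell by 2.13 ± 0.42 and TNFRSF1B by 2.42 ± 0.49, and in all 8 of 40 cytokine genes were higher (5 without IVM 1 or PM 3) and 6 lower, 5 and 8 after centring. Their median went from 0.25 (0.15 without IVM 1) to -0.16 with the hybridization level as a covariate. Interferon genes rose in 11 of 28 cases and fell in 3, but their median went from 0.30 (0.16 without IVM 2) to -0.24 with the hybridization level as a covariate. IFNAR2, a subunit of the interferon receptor, had levels of 6.02, 6.02, 5.91 and 6.02 in PM and 8.30, 8.02 and 7.997 in IVM, a difference of 2.11 ± 0.34. IRF1 gave 8.67, 8.98, 10.13 and 8.999 in PM and 6.19, 6.61 and 6.18 in IVM, a difference of -2.87 ± 0.44. ISG15 rose by 1.58 ± 0.38 and ISG20 by 1.56 ± 0.33. The falls besides IRF1 were OAS1 (-1.98 ± 0.33, with another probe set higher) and IRF2 (-0.47 ± 0.17), whose call was lost in 9 of the 11 fits without 1 array, those without IVM 1 or PM 2 excepted, with differences between -0.69 and -0.33. In the prostaglandin list, CBR1, a carbonyl reductase that converts prostaglandins, was at 9.29, 9.26, 9.50 and 9.70 in PM and 10.94, 10.75 and 10.997 in IVM, a difference of 1.46 ± 0.13. LTC4S, which makes leukotriene C, read 9.55, 10.09, 8.87 and 10.15 in PM and 7.07, 7.52 and 7.37 in IVM, a difference of -2.34 ± 0.28. ALOX15 rose by 0.82 ± 0.14, PTGER1 by 0.63 ± 0.15, PTGIR by 0.48 ± 0.11 and HPGD by 1.28 ± 0.44, the last lost without IVM 1, IVM 3, PM 2, PM 4 or VVM 2, with differences from 0.76 to 1.65. This makes 5 rises (31.25%) and the LTC4S fall (6.25%) among 16 measured genes, against 25.0% and 20.9% over all genes. Of 31 p53 targets and apoptosis genes 8 were higher (25.8%) and 5 lower (16.1%), near the shares over all genes, and 5 and 7 after centring. The median of this list went from 0.19 (0.09 without IVM 1, 0.05 without IVM 2, 0.11 without PM 2 or PM 4) to -0.16 with the hybridization level as a covariate. GADD45B, a stress sensor, stood at 6.21, 6.98, 7.44 and 7.87 in PM and 11.45, 10.64 and 9.27 in IVM, a difference of 3.33 ± 0.66, and MCL1, which blocks apoptosis, rose by 1.41 ± 0.18. The falls were PMAIP1 (-1.81 ± 0.41), BAK1 (-0.89 ± 0.18) and BAX (-0.65 ± 0.14), which promote apoptosis, TIGAR (-1.44 ± 0.34) and CFLAR (-0.80 ± 0.22).

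Counts of called markers of other cells are set against the 25.0% higher and 20.9% lower over all genes. The leukocyte (22.7% and 9.1%), oocyte (18.75% and 12.5%) and erythroid (0% and 16.7%) lists did not exceed these shares. Higher calls exceeded them in the epithelial (46.7%), endothelial (35.7%) and theca and stroma (50.0%) lists. Of 15 measured markers of ovarian surface and tubal epithelium limma called 7 higher and 0 lower, and 0 were lower at an unadjusted p under 0.05. Of these markers 11 lay above the array medians in PM and 12 in IVM, and their summed level ranged from 10.47 to 10.89 in PM and from 11.18 to 12.02 in IVM. KRT19 measured 7.38, 7.91, 8.45 and 8.48 in PM and 9.29, 11.001 and 11.19 in IVM, a difference of 2.44 ± 0.44, and KRT18 rose by 1.602 ± 0.40. Of the endothelial markers 7 of 14 lay above the array medians in each group, and their sum ranged from 9.56 to 10.09 in PM and from 10.12 to 10.37 in IVM, with 5 rises and 1 fall (1 and 2 after cyclic loess normalization). ENG rose by 1.51 ± 0.15. ERG, an endothelial transcription factor, had levels of 8.26, 7.14, 6.10 and 8.79 in PM and 4.03, 3.72 and 3.95 in IVM and fell by 3.67 ± 0.51. CDH5 (0.52 ± 0.13), TIE1 (0.50 ± 0.10) and ROBO4 (0.49 ± 0.11) were small rises, and the call of FLT1 (0.38 ± 0.13) was lost in 8 of the 11 fits without 1 array, those without IVM 3, PM 3 or VVM 2 excepted, with differences between 0.30 and 0.48. Of the leukocyte markers 11 of 22 lay above the array medians in PM and 14 in IVM, and their sum was lower in IVM, from 10.96 to 11.12 in PM and from 10.62 to 10.69 in IVM, with 5 rises (3 without PM 3 or PM 4) and 2 falls. Bright markers such as CSF1R weigh most in this sum. The median difference of the 22 markers was 0.28, with 18 of them above 0, against 0.12 over all genes. CSF1R, a receptor of macrophages, gave 10.21, 10.11, 10.11 and 9.95 in PM and 7.495, 7.78 and 8.88 in IVM, a difference of -2.04 ± 0.52. GNLY (0.87 ± 0.15), CD4 (0.83 ± 0.21) and AIF1 (0.57 ± 0.13) rose. The calls of CD68 (1.03 ± 0.33, with another probe set lower), CORO1A (0.50 ± 0.17) and ITGAM (-0.59 ± 0.19) were lost without IVM 1, PM 2, PM 3 or PM 4, with differences from 0.82 to 1.14, lost without IVM 1, IVM 2, IVM 3, PM 1, PM 3 or PM 4, with differences from 0.46 to 0.58, and lost without IVM 1, IVM 2, IVM 3, PM 1, PM 3 or PM 4, with differences from -0.74 to -0.47. Of the oocyte markers 7 of 16 lay above the array medians in PM and 8 in IVM, and their sum ranged from 11.34 to 12.43 in PM and from 10.88 to 11.41 in IVM, which overlap. ZP1 (0.93 ± 0.18), NOBOX (0.74 ± 0.13) and SOHLH1 (0.37 ± 0.12, lost without IVM 1, IVM 2, PM 1 or PM 3, with differences from 0.34 to 0.41) were higher, and NLRP7 (-1.94 ± 0.36) and SOHLH2 (-1.86 ± 0.44, with another probe set higher) were lower. Theca and stroma sums overlapped at 9.71 to 11.22 and 9.85 to 10.57, and 6 of 10 markers lay above the array medians in each group. COL1A1 rose by 0.91 ± 0.13, while the calls of DCN (2.18 ± 0.61, with another probe set lower), CYP17A1 (0.53 ± 0.16), THY1 (0.40 ± 0.12) and MYH11 (-2.10 ± 0.70) were lost without IVM 1, with differences from 1.74 to 2.42, lost without IVM 2, PM 1 or PM 4, with differences from 0.43 to 0.64, lost without IVM 1, IVM 2, PM 1 or PM 2, with differences from 0.35 to 0.48, and lost without IVM 1, IVM 2, IVM 3, PM 1 or PM 4, with differences from -2.62 to -1.65. The call of LUM (0.32 ± 0.12) was lost in 8 of the 11 fits without 1 array, all but those without IVM 3, VVM 2 or VVM 4. Erythroid sums were 8.35 to 9.16 and 7.998 to 8.29, with 2 of 6 markers above the array medians in each group, and the only call, HBB (-0.995 ± 0.35), was lost without IVM 2, IVM 3, PM 1, PM 3 or PM 4, with differences from -1.17 to -0.85. This list leaves out HBA (-1.52 ± 0.59, not called). It also leaves out the doubtful USP14 probe sets, of which the one from the source sequence of HBB fell by 7.27 ± 0.65, so it may miss a change in globin transcripts. The part of these cells in the differences was not tested.

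For some of these genes the culture level was compared with the level after maturation in the animal, in the same fit and over the same probe sets. The genes given here are examples and not a full list. HEYL was 2.01 ± 0.38 above VVM (adjusted p = 0.00698), and TRIB3, YARS1, CBR1 and SREBF1 were higher than in VVM by 1.44 ± 0.20, 1.31 ± 0.20, 1.26 ± 0.13 and 1.44 ± 0.25. GMNN was 2.59 ± 0.28 above VVM. GATA4, which fell from PM, was still 1.31 ± 0.23 above VVM. ASNS (4.09 ± 0.60), SLC7A11 (3.95 ± 0.58) and SMAD7 (3.86 ± 0.34) stood further above VVM. GLCCI1 and PDP1 stood below VVM, at -2.17 ± 0.21 and -2.05 ± 0.28, as did CTNND1 (-1.44 ± 0.20), MAP3K1 (-1.31 ± 0.16), TGIF1 (-1.22 ± 0.18), CREB1 (-0.82 ± 0.16) and NR4A2 (-1.67 ± 0.18). Larger differences below VVM were those of EGR2 (-5.38 ± 0.57), PYROXD1 (-4.68 ± 0.36), VCAM1 (-4.21 ± 0.44) and KLF6 (-3.01 ± 0.19). In these the VVM mean lay above the PM mean, a difference not tested here. CEBPA rose in culture but its difference from VVM was -2.47 ± 0.52 (adjusted p = 0.0114). Each of these calls was kept in the 11 fits that left out 1 array. For FOXM1, CCNB1, MCM5, KIF2C and CENPF the differences from VVM were -1.21 ± 0.43, -0.64 ± 0.41, 0.35 ± 0.42, -0.99 ± 0.42 and -1.03 ± 0.32, none of them called, which does not show that the levels are equal. Other genes of dividing cells were called below VVM in limma. CKAP2 stood at -2.16 ± 0.49 (adjusted p = 0.0169), kept in every fit without 1 array, and HMGB2 at -2.25 ± 0.49 (adjusted p = 0.0129), lost without IVM 2.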

How the data were processed

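Gene expression was measured on Affymetrix rhesus arrays. The deposited intensity values were summarised and normalized with RMA in Affymetrix Expression Console, per the submitters' processing notes, and lie on a linear scale by their range (array medians from 40.6 to 46.1), so log2 was taken with no offset and no further normalization. Of 52865 probe sets, 99 control sets were left out. Of the 52766 tested, 24956 had 1 gene symbol in the array annotation, 361 several and 27449 none, and 24616 of the 24956 were matched to current RefSeq names by gene identifier. Each of 14132 genes is represented by the probe set with the highest mean over the 11 arrays (6375 genes have more than 1), and a difference is that of this probe set.

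A model with the 3 groups was fitted to all 11 arrays (8 residual degrees of freedom) with limma 3.58.1 in R 4.3.3, after a test on simulated data. The Benjamini-Hochberg adjustment of p-values ran over all 52766 probe sets that are not controls, with or without a gene symbol. The number of arrays limits the precision, and array values carry no depth. The members and the gene lists were chosen with earlier results of these data known. Counts over a list are therefore descriptions, to be read against the 25.0% higher and 20.9% lower over all genes.

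Genes named are the 15 largest rises and falls, a set of known cumulus genes and up to 4 genes of each list. Except for that set, these had to be called, without overlap of the groups, with the same call without each of the 7 arrays, and with no fewer probe sets of that symbol called the same way than not called, and none the other way. Where 5 or fewer members of a list were called in a direction all are named, and these and other genes outside the rule were chosen after their values were seen. Alternatives covered normalization, dim and cross-hybridizing probe sets, thresholds, the prior of the spread, array weights, covariates, replicate numbers and each array left out. Replicate numbers were not used as pairs. Some genes known for cumulus cells, such as PTGS2 and EREG, were not analysed here.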

Additional observations from a re-analysis of the deposited data

Results flagged for a closer look

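Within the 4 PM arrays, 18 of the 189 genes named by the rule had 1 array apart from the other 3 by a test of the gap over the range (Dixon's 95% critical value), which chance alone passes in about 1 of 20 groups. Arrays of IVM are too few for this test. PM 2 stood high in HAS2 (6.90, against 4.35 to 4.72 in the others), GATA4 (11.32, against 10.71 to 10.76), KIF2C (11.07, against 10.58 to 10.66), AXL (8.05, against 7.53 to 7.62) and ATG16L1 (9.22, against 8.58 to 8.61). It stood low in EGR2 (9.07, against 10.63 to 10.91) and MANF (11.37, against 11.92 to 11.996). PM 1 was high in RGS2 (10.83, against 5.89 to 6.30) and UHRF1 (9.34, against 8.92 to 8.98), and low in ADAMTS1 (4.48, against 5.25 to 5.29) and MMP10 (3.61, against 3.86 to 3.88).

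PM 4 was high in MCM5 (12.56, against 11.69 to 11.83) and SLC2A1 (9.61, against 8.75 to 8.86), and low in MAD2L1 (8.60, against 9.39 to 9.45) and VCAN (12.51, against 12.72 to 12.76). PM 3 was high in INHA (14.01, against 13.78 to 13.80) and low in IFNAR2 (5.91, against 6.02 in each of the others) and LDHA (13.36, against 13.43 to 13.44). Only in RGS2 and HAS2 did the gap exceed 2 on the log2 scale, and in both the array apart lay toward the IVM level.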

How the results depend on the processing

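The counts of 3539 genes higher and 2953 lower moved by more than 1.5 times under few settings. Higher genes numbered 2078 after centring each array on its median, 2215 when probe sets had to average 6 or more, 1897 at an adjusted p under 0.01 and 718 at 2-fold, and lower genes 1810 at 2-fold. With the 3 prime minus 5 prime level as a covariate 1650 and 1798 were called, and with the hybridization controls as a covariate 0 and 2, against 1158 and 970 at an unadjusted p under 0.05 in limma. Without 1 array of the 11, between 2604 and 3568 genes were higher and between 2437 and 3016 lower. The share of rises among calls went from 54.5% to 37.9% after centring, 47.5% after cyclic loess and 57.9% after quantile normalization. With the replicate number as a block 2914 and 2694 genes were called, and the numbers did not pair the samples (correlations of deviations -0.044, 0.094 and -0.032).

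Some single genes changed direction. With the hybridization covariate AREG was -0.041, CXCR4 0.22, ISG15 -0.59, LDHA 0.41 and PTX3 -1.10, and with the 3 prime covariate PTX3 was -0.095. CYP19A1 was 0.017 with array weights, 0.15 after cyclic loess, 0.25 after quantile normalization, and between -0.32 (without PM 4) and 0.25 (without PM 2) without 1 array. The cause was not tested. Of 205 differences of named genes, 191 lost their call with the hybridization covariate, 26 with the 3 prime covariate, 27 at 2-fold and 8 at an adjusted p under 0.01. The fall of AMH and the rise of AREG lost theirs with the block. Searches of promoters were not run.

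With 3 culture arrays, levels under the array medians carry little information on size, and 786 of the rises lie there. The group and the hybridization level cannot be told apart in these arrays.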

Other observations

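Lysosome and autophagy genes were measured but fall outside the processes above. Of 30 genes 10 were higher in IVM (33.3%, 4 genes without IVM 1) and 7 lower (23.3%), against 25.0% and 20.9% over all genes. The median of the list was -0.01 (between -0.11 and 0.06 without 1 array), with 7 higher and 7 lower after centring, and 11 and 7 after cyclic loess. ATG4A, a protease that processes the autophagosome protein LC3, stood at 5.97, 5.64, 5.81 and 5.97 in PM and 7.08, 7.33 and 7.17 in IVM and rose by 1.34 ± 0.33. TFEB, the transcription factor of lysosomal genes, rose by 0.78 ± 0.15. MAP1LC3B, which encodes that autophagosome protein, was lower, at 9.60, 9.63, 9.86 and 9.47 in PM and 8.55, 8.22 and 9.07 in IVM, a fall of 1.03 ± 0.22 with 2 of its 3 probe sets called. The kinase genes ULK2 and ULK1, which start autophagy, fell by 1.21 ± 0.30 and 0.70 ± 0.15.

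Cytosolic ribosomal protein genes had 10 of 31 members higher (32.3%) and 4 lower (12.9%), against 25.0% and 20.9% over all genes. The counts were 6 and 7 after centring and 12 and 4 after cyclic loess, and most differences were under 2-fold. RPL22 had the largest fall of the list, at 12.43, 11.98, 11.53 and 12.11 in PM and 10.34, 9.52 and 10.23 in IVM, and its 3 probe sets all fell, the brightest by 1.98 ± 0.23. The other falls were RPL31 (-0.83 ± 0.19), RPL8 (-0.73 ± 0.17) and RPS10 (-0.68 ± 0.22), the last lost without IVM 2, IVM 3, PM 1 or PM 4, with differences from -0.82 to -0.52. RPS15 rose by 0.86 ± 0.15 and RPL23 by 0.75 ± 0.15. Both genes called with the hybridization level as a covariate had lower levels in culture. ALDH1L1, a folate enzyme, had a PM mean of 10.14 and an IVM mean of 6.37, and its difference went from -3.77 to -4.27 with the covariate (adjusted p = 0.0443 in limma). CNST had means of 6.87 and 4.50, and its difference went from -2.37 to -3.44 (adjusted p = 0.0461 in limma).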
